A study of Mus musculus with 6 samples.

Results

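Iron handling genes were followed in cultured mouse microglia, the resident macrophages of the brain, with and without induced deletion of Nr1d1, which encodes the clock repressor REV-ERBα. The members were 10 genes picked by symbol out of 55487 genes in the files: the iron reductases Steap3 and Steap4, the transferrin receptor Tfrc, the divalent metal transporters Slc11a1 and Slc11a2, the ferritin subunits Fth1 and Ftl1, the ferritin receptor Ncoa4, the iron exporter Slc40a1 and the iron sensor Ireb2. They were proposed with results of this same comparison in view, so their fold changes and adjusted p-values below are a description of these 6 libraries and not an independent test. Both groups were cortical microglia separated from mixed glial cultures of P1-3 Nr1d1 fl/fl pups, and every culture received 1.5 µM 4-hydroxytamoxifen (4-OHT), the ligand that activates CreERT2, for 2 days according to the labels. The 3 Cre+ cultures carried CAG::CreERT2, driven by a ubiquitous promoter, and the 3 Cre- cultures came from littermates without it. CreERT2 with bound 4-OHT and loss of Nr1d1 therefore occurred together in Cre+ cells, and their effects cannot be told apart. RNA was measured by bulk RNA-seq as read counts per gene.

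Cells take up transferrin-bound iron through TFRC, reduce it in endosomes with STEAP3 and pass it to the cytosol through SLC11A2, while SLC11A1 moves metal out of phagosomes. Iron in the cytosol is stored in ferritin, a shell of heavy (FTH1) and light (FTL1) chains. It is released again when NCOA4 brings ferritin to the lysosome, and it leaves the cell through ferroportin (SLC40A1). Macrophages, microglia included, also recover iron from haem, and the iron regulatory proteins encoded by Aco1 and Ireb2 control translation or stability of several of these mRNAs through a hairpin in their untranslated regions (UTRs), the iron-responsive element.

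Libraries held 87545868 to 93942161 counts on genes in Cre- and 93701215 to 110909129 in Cre+, and the 10 most abundant genes took 30.2% to 31.8% of them. Nr1d1 (chr11:98767932-98775333) was at 2.35, 1.20 and 1.64 counts per 1000000 of the scaled library size (CPM) in the Cre- libraries and at 1.00, 0.945 and 1.08 CPM in the Cre+ libraries, a log2 fold change of -0.77 (SE 0.25) that missed the threshold of 0.05 (adjusted p = 0.0945, edgeR's quasi-likelihood test). It passed in 1 of 14 alternative settings, without Cre- replicate 2 (-0.98, adjusted p = 0.0414, against up to 0.313 over these settings by edgeR, DESeq2 or limma), and that highest p came without Cre- replicate 1, at -0.50. Counts cover the whole gene and not the deleted exons alone. The summed level of 10 microglia markers was 3338 to 3432 CPM in Cre- and 3370 to 3492 CPM in Cre+, although P2ry12, a marker of microglia in the intact brain, had only 35 to 92 counts in a library and did not pass the expression filter. Of the 9 microglia markers tested, Itgam rose (log2 fold change 0.18, adjusted p = 0.0463) and the others, from -0.29 to 0.44, did not pass the threshold of edgeR's quasi-likelihood test. Summed erythroid markers, including the haemoglobin genes, were at 0.471 to 0.838 CPM in Cre- and at 0.219 to 0.462 CPM in Cre+. Summed neuron markers were at 2.88 to 3.77 CPM in Cre- and 2.05 to 2.14 CPM in Cre+, fibroblast and mural markers at 1.84 to 2.83 and 0.972 to 1.23 CPM, and endothelial markers at 20.9 to 22.9 and 24.3 to 27.9 CPM. Of the 2 endothelial markers tested, Flt1 rose (0.33, adjusted p = 0.0245, edgeR's quasi-likelihood test). Astrocyte markers (12.9 to 14.1 and 11.3 to 15.0 CPM) and oligodendrocyte markers (36.4 to 43.7 and 39.5 to 40.1 CPM) overlapped between the groups. Summed monocyte and border macrophage markers were at 149 to 150 CPM and at 149 to 180 CPM. Of the 3 tested in that list, Mrc1 rose in Cre+ (log2 fold change 0.47, adjusted p = 6.69e-04, edgeR's quasi-likelihood test). Calls among the markers stand beside 5.07% of all 11429 genes tested in either direction and 2.50% that rose. The part of these markers in the results below was not tested. In bulk RNA, fewer cells that express a gene and less RNA per cell cannot be told apart.

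The hairpin letters of the iron-responsive element are shown first. A match to them does not by itself show that the iron regulatory proteins read that mRNA. UTRs of the GENCODE transcripts (GRCm38) were searched on the transcribed strand for a C, any 5 bases, and a CAGTGN loop with a loop end other than G, followed by 5 bases of which at least 4 could pair with the first 5. Capitals mark the bulged C and the loop. Such a match was found in 5 of the members, in the 5′ UTR of Fth1 (chr19:9982732-9982761, plus strand), Ftl1 (chr7:45459778-45459807, minus strand) and Slc40a1 (chr1:45925464-45925493, minus strand) and in the 3′ UTR of Tfrc and Slc11a2 (chr15:100395152-100395181, minus strand). Tfrc held 4 matches, of which the outermost are at chr16:32631219-32631248 and chr16:32631710-32631739 (plus strand).
Fth1: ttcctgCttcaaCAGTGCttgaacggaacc
Ftl1: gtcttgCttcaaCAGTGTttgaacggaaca
Slc40a1: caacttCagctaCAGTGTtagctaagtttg
Slc11a2: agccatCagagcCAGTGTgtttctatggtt
Tfrc, 5′-most: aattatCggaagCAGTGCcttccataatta
Tfrc, next: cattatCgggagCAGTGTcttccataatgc
Tfrc, next again: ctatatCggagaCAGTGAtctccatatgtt
Tfrc, 3′-most: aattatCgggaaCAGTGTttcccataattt
All 5 stem pairs could form in each of these except that of Slc11a2, with 4. A match with at least 4 pairs occurred in 3.65% of 21901 coding genes, and one with all 5 pairs in 0.557%. The match is a description of the letters, and mRNA levels do not measure translation, which is what the 5′ UTR hairpin is known to control.

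Of the 10 members, 9 passed the expression filter and Steap4 did not. Steap3 and Fth1 fell in Cre+, none rose, and 7 did not pass the threshold, where 5.07% of the 11429 genes tested did so in either direction while 2.50% rose and 2.56% fell. The median log2 fold change of the 9 was -0.08, beside 0.00 over all genes tested. The groups were apart for 5 of the 9, with every library of one group above every library of the other (Steap3, Tfrc, Fth1, Ftl1 and Slc40a1), as were those of 24.0% of all genes tested. Steap3 stood far from the others, which all lay within -0.20 and 0.23 on the log2 scale.

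**Figure D1:**
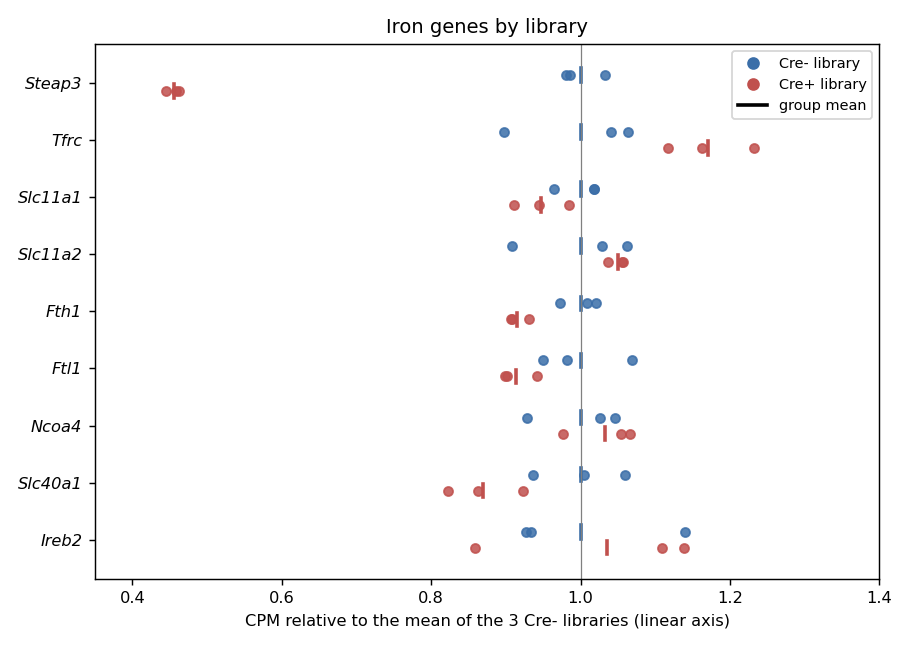
CPM of the 9 tested iron genes in each library, divided by the mean of the 3 Cre- libraries (linear axis), with points for libraries and short bars for group means. The 3 Cre+ points of Steap3 lie far to the left of the Cre- points, and the Cre+ means of the other genes lie between a change of -13.1% (Slc40a1) and 17.1% (Tfrc).

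Steap3 (ENSMUSG00000026389, chr1:120190757-120272705, minus strand), the endosomal ferrireductase that turns ferric into ferrous iron, was at 123, 129 and 122 CPM in the Cre- libraries and at 57.1, 55.3 and 57.6 CPM in the Cre+ libraries. The groups were far apart and each was tight, at 124.5 ± 3.52 CPM against 56.7 ± 1.20 CPM (mean ± SD, n = 3 each). The level fell by 54.5%, a log2 fold change of -1.14 (SE 0.05, adjusted p = 9.89e-10 by edgeR's quasi-likelihood test). This was the 5th smallest p-value of the 11429 genes and the 17th largest fall, and only 24 genes fell to a log2 fold change of -1 or below, while the median size among all called genes was 0.35. The fold change stayed between -1.15 and -1.11 whichever library was left out, and the call held in 14 of 14 alternative settings. The 5715 exon bases of Steap3 overlapped no other gene, and no near-identical sequence was found for it.

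Steap3 has 4 start sites in the RefSeq promoter table (GRCm38.p6, windows from 250 bases before to 50 bases after a start). One of them, at chr1:120270270 on the minus strand, is shown because its window holds AGGTCA 4 times. REV-ERB and ROR receptors bind this core sequence, but other nuclear receptors share it. Capitals in the 150 bases before that start (chr1:120270271-120270420) mark AGGTCA or its reverse complement.
Steap3 promoter: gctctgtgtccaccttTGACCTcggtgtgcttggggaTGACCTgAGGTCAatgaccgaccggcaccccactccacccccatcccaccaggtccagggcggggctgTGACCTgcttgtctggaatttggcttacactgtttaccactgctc
The matches begin 134, 113, 106 and 45 bases before the start, and the middle pair stands back to back, 1 base apart and pointing away from each other. Both strands were searched. AGGTCA occurred in 16.3% of the 32851 windows in the table, and 4 or more matches in 5 of them (0.0152%). The cut of 4 was taken from this Steap3 window after it was seen, so that share is a description and not a test. The other 3 windows of Steap3 held none. The longer motif ANTAGGTCA, which contains AGGTCA and occurred in 0.661% of windows, was in no window of Steap3. Among the other members, Slc11a1 and 1 of the 3 start sites of Ncoa4 held AGGTCA, and the windows of Steap4, Tfrc, Fth1, Ftl1 and Ireb2 did not. Slc40a1 and Slc11a2 were not matched to the table. The windows of Nr1d1 itself, and of Alas1, Blvrb and App among the iron genes described below, held no AGGTCA either. A match does not show that a factor binds there, and the start site used in these cells was not measured. Whether REV-ERBα acts on Steap3 was not tested.

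Steap4 (ENSMUSG00000012428, chr5:7960457-7982213), a plasma membrane and endosomal relative of Steap3 known from inflamed tissue, was read 2, 2 and 3 times in Cre- replicates 1 to 3 and 0 times in each Cre+ library. A count of 0 allows up to 3 counts, or 0.0274 to 0.0322 CPM in the Cre+ libraries, and no Cre- library had more than 3 counts. Every Cre- library lay above every Cre+ library, but all of them lay within that floor. Steap4 was not called in the fit with no expression filter, which tested all 10 members. Such floors take each library alone and cover counting error only.

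Tfrc (ENSMUSG00000022797, chr16:32608920-32632794, plus strand), the receptor for transferrin-bound iron, was at 11.9, 11.6 and 10.0 CPM in Cre- and at 13.8, 12.5 and 12.97 CPM in Cre+. All Cre+ values lay above all Cre- values. The means were 11.2 ± 1.00 and 13.1 ± 0.650 CPM (SD, n = 3 each), and the log2 fold change of 0.23 (SE 0.10) did not pass the threshold (adjusted p = 0.242, edgeR's quasi-likelihood test) or in any of 14 alternative settings. Leaving out 1 library gave 0.15 to 0.27. It is the member with 4 hairpin matches in its 3′ UTR, where bound regulatory proteins are known to stabilise the mRNA.

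Slc11a1 (ENSMUSG00000026177, chr1:74375195-74386062), the metal transporter of the macrophage phagosome, was at 431, 431 and 408 CPM in Cre- and at 417, 385 and 399 CPM in Cre+. The groups overlapped, and the log2 fold change was -0.08 (SE 0.04, adjusted p = 0.355, edgeR's quasi-likelihood test). Slc11a2 (ENSMUSG00000023030, chr15:100387898-100425072), which moves endosomal iron into the cytosol, was at 66.2, 68.4 and 58.5 CPM in Cre- and at 66.7, 67.9 and 68.0 CPM in Cre+. These groups overlapped as well, with 1 low Cre- library and a log2 fold change of 0.07 (SE 0.06, adjusted p = 0.597, edgeR's quasi-likelihood test). The 6354 exon bases of Slc11a2 share 402 with Gm5475 on the opposite strand, and the library kit does not mark strand, so reads there cannot be assigned to either. Gm5475 itself was at means of 0.652 CPM in Cre- and 0.175 CPM in Cre+.

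The ferritin heavy chain Fth1 (ENSMUSG00000024661, chr19:9980598-9985098, plus strand), the subunit with ferroxidase activity, was among the most abundant mRNAs of these cells. It ranked 3rd by count in every Cre- library and 2nd in every Cre+ library, and took 5.39% to 5.65% of all counts in Cre- and 5.06% to 5.17% in Cre+. Its level was 56878, 54849 and 57567 CPM in Cre- and 51231, 51203 and 52506 CPM in Cre+, so that the groups did not overlap. It fell by 8.48%, a log2 fold change of -0.13 (SE 0.03, adjusted p = 0.0201 by edgeR's quasi-likelihood test). That small fall stayed between -0.15 and -0.12 whichever library was left out, but it passed the threshold in only 3 of those 6 fits and was lost without Cre- replicate 3 and without Cre+ replicate 1 or 2. With no expression filter the value was -0.05 (adjusted p = 0.559, where the 14 alternative settings by edgeR, DESeq2 or limma ran from 0.00518 to 0.559). In that fit, over 43842 genes, Steap3 also lay higher than in the main fit, at -1.06.

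The light chain Ftl1 (ENSMUSG00000050708, chr7:45457944-45459884, minus strand), which promotes formation of the iron core, was at 9116, 9434 and 10268 CPM in Cre- and at 8638, 8657 and 9049 CPM in Cre+. The groups did not overlap, the means were 9606 ± 595 and 8781 ± 232 CPM (SD, n = 3 each), and the log2 fold change equalled that of Fth1 at -0.13 (SE 0.04), with an adjusted p of 0.0919 from edgeR's quasi-likelihood test. It passed in 1 of 14 alternative settings, without Cre- replicate 1 (-0.17, adjusted p = 0.0326, against up to 0.578 in the other settings), and was at -0.08 without Cre- replicate 3 (adjusted p = 0.321, edgeR's quasi-likelihood test). Per length, the ratio of Fth1 to Ftl1 was 2.41, 2.25 and 2.17 in the Cre- libraries and 2.29, 2.28 and 2.24 in the Cre+ libraries. The means of 2.27 ± 0.125 and 2.27 ± 0.0271 (SD, n = 3 each) were close and the groups overlapped (2-sided exact permutation test, p = 1, where 3 against 3 libraries cannot go below 0.1). Together the ferritin chains took 6.32% to 6.58% of all counts in Cre- and 5.92% to 6.06% in Cre+.

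Ferritin has processed copies in the genome that could share its reads, so the ferritin levels carry that uncertainty. Gm6977, 95.6% identical to Fth1 over 274 bases, was at a mean of 203 CPM in Cre- and 182 CPM in Cre+. Of the copies of Ftl1, Ftl1-ps1 was highest at 293 and 265 CPM, followed by Gm15590 at 193 and 178 CPM, Gm12164 at 73.5 and 69.2 CPM, Ftl1-ps2 at 68.8 and 62.7 CPM and Ftl2-ps at 40.2 and 36.7 CPM. None of them passed the threshold, and each lay far below the gene it resembles. Ftl1 also shares 355 of its 1340 exon bases with Gm10252 on the opposite strand, which was at 0.733 and 0.691 CPM.

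Ncoa4 (ENSMUSG00000056234, chr14:32159865-32179855), which delivers ferritin to the lysosome, was at 123, 121 and 109 CPM in Cre- and at 126, 115 and 124 CPM in Cre+. The groups overlapped, and the log2 fold change of 0.05 (SE 0.06, adjusted p = 0.729, edgeR's quasi-likelihood test) went to -0.01 without Cre- replicate 3. Its copy Gm6768, 99.6% identical over 1883 bases, was at means of 3.54 and 4.00 CPM.

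Slc40a1 (ENSMUSG00000025993, chr1:45908068-45926523, minus strand), encoding ferroportin, was at 88.8, 93.6 and 82.8 CPM in Cre- and at 81.5, 76.2 and 72.7 CPM in Cre+. The highest Cre+ library lay just below the lowest Cre- library. The means were 88.4 ± 5.44 and 76.8 ± 4.45 CPM (SD, n = 3 each), a log2 fold change of -0.20 (SE 0.06) just outside the threshold (adjusted p = 0.0696, edgeR's quasi-likelihood test). DESeq2 placed it inside (-0.21, adjusted p = 0.0255, against up to 0.419 in the other settings), and leaving out 1 library gave -0.25 to -0.16. Among the members it was the nearest outside the threshold, as Fth1 was the nearest inside.

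Ireb2 (ENSMUSG00000032293, chr9:54863789-54912530), which encodes an iron regulatory protein degraded when iron is plentiful, was at 15.4, 12.6 and 12.6 CPM in Cre- and at 15.0, 11.6 and 15.4 CPM in Cre+. Each group held high and low libraries and the groups overlapped, with a log2 fold change of 0.05 (SE 0.12, adjusted p = 0.878, edgeR's quasi-likelihood test) whose sign depended on the library left out (-0.02 to 0.17).

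Compared per exon length, as CPM per 1000 exon bases (FPKM), the members differed by orders of magnitude. In Cre- the order was Fth1 (16267 ± 407 FPKM), Ftl1 (7169 ± 444), Slc11a1 (114 ± 3.53), Steap3 (21.8 ± 0.617), Ncoa4 (12.6 ± 0.789), Slc11a2 (10.1 ± 0.819), Slc40a1 (9.82 ± 0.604), Tfrc (1.80 ± 0.162) and Ireb2 (1.43 ± 0.173), each mean ± SD over 3 libraries. Slc11a2 and Slc40a1 lay within their spread of each other. In Cre+ Steap3 moved from above Ncoa4 and Slc11a2 to 9.92 ± 0.211 FPKM, below Ncoa4 (12.98 ± 0.612) and Slc11a2 (10.6 ± 0.112) and above Slc40a1 (8.54 ± 0.494).

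**Figure D2:**
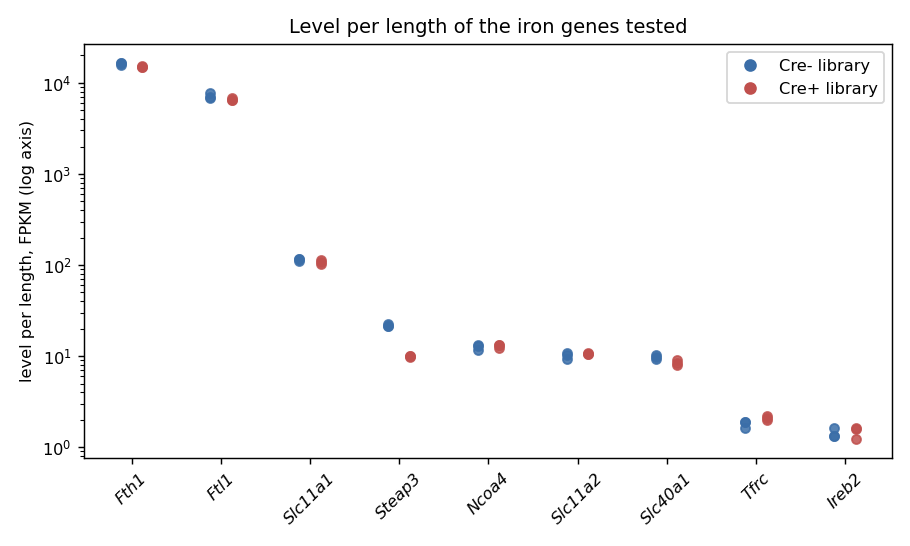
Level per exon length (FPKM, log axis) of the 9 tested iron genes in each Cre- and Cre+ library, 1 point per library. The ferritin genes lie far above the rest, from 16267 FPKM for Fth1 down to 1.43 FPKM for Ireb2 in the Cre- means, and Steap3 is the gene whose points separate most.

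The genes whose pattern over the 6 libraries was most like that of Steap3 were Ear2 (Pearson's r of log2 CPM 0.999), Angptl4 (0.998), Pon2 (0.997), 1700017M07Rik (0.996) and Pianp (0.995), out of 8446 genes averaging 5 CPM or more. With 6 points in 2 groups, r mostly reads the gap between the groups and is given as a description. Ear2, an eosinophil-type ribonuclease, was at 41.2, 41.6 and 41.5 CPM in Cre- and at 21.5, 20.7 and 20.7 CPM in Cre+, a log2 fold change of -0.98. The others differed in size, from -2.17 for 1700017M07Rik to -0.16 for Angptl4, which did not pass the threshold (adjusted p = 0.119, edgeR's quasi-likelihood test).

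Beyond the members, 6 lists of other iron genes by role held 79 genes in the files, of which 58 passed the expression filter. Of these, 2 rose, 5 fell and 51 did not pass the threshold, that is 12.1% called beside 5.07% of all genes tested. The lists were chosen with earlier results of these data known, so these shares are a description and not a test. The 5.07% also stands beside the counts of each list below. The fold changes of these 58 lay above 0 for 21 genes and below 0 for 37, with a median of -0.05 on the log2 scale.

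**Figure D3:**
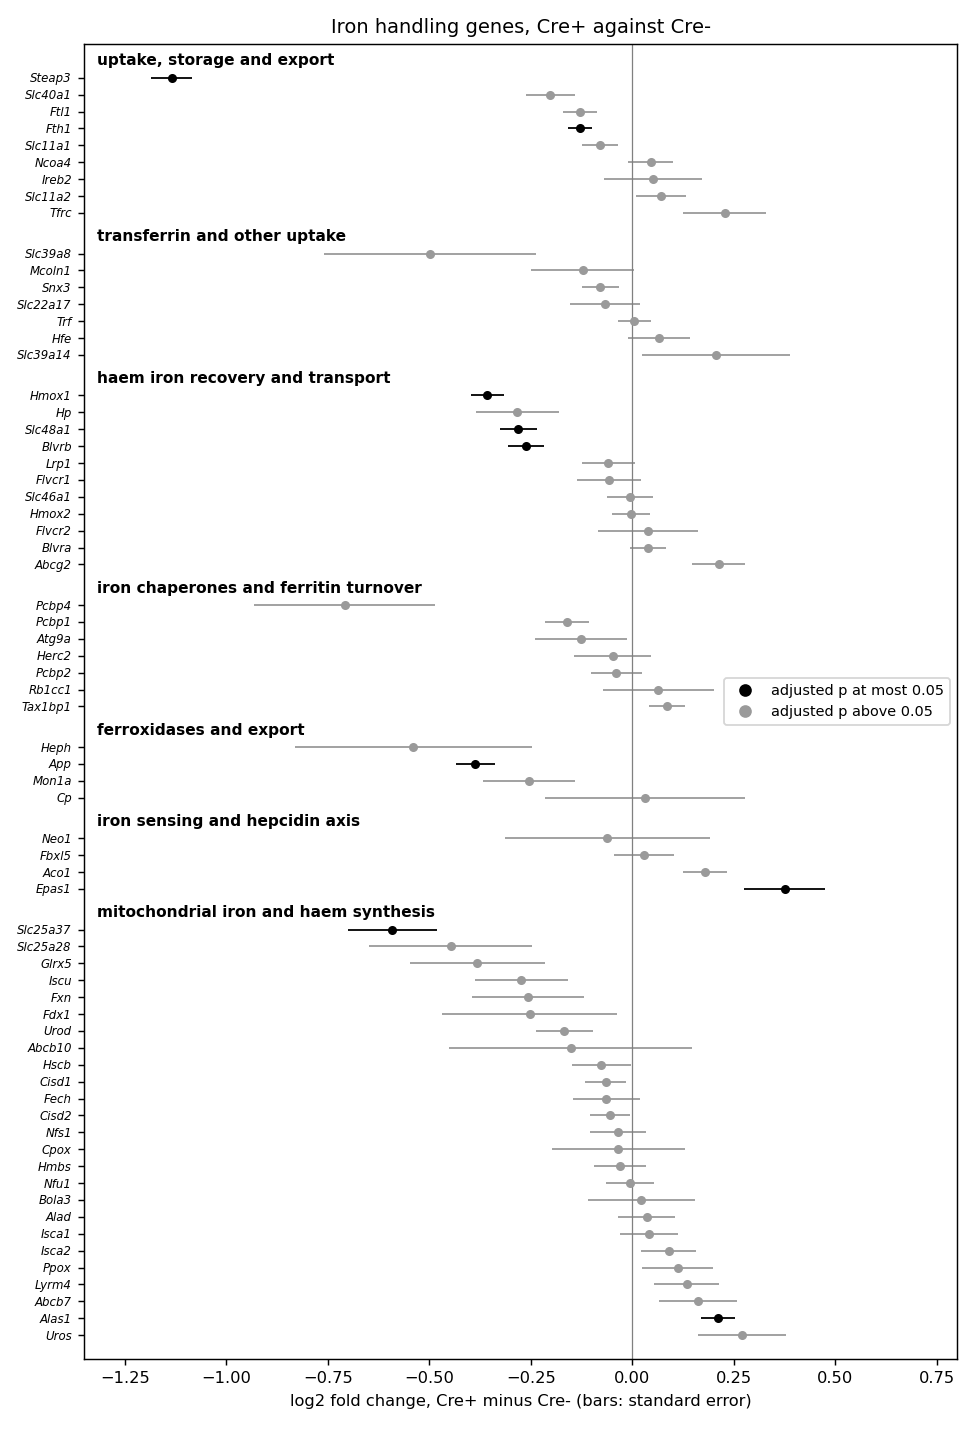
Log2 fold change (Cre+ minus Cre-, bars are standard errors) of the 9 members and 58 other iron genes tested, grouped by role, with genes at an adjusted p of at most 0.05 in black. Steap3 at -1.14 lies furthest to the left, and the black points of the other lists run from -0.59 (Slc25a37) to 0.38 (Epas1).

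In haem iron recovery, 3 of 11 tested genes fell and none rose in edgeR and in limma, where 2.56% of all genes tested fell in edgeR. DESeq2 called 4 of the 11, beside 886 of the 11429 genes tested. Hmox1 (chr8:75093621-75100589), the haem oxygenase that frees iron from haem, was at 502, 484 and 511 CPM in Cre- and at 392, 392 and 384 CPM in Cre+. It fell by 21.9% (log2 fold change -0.36, SE 0.04, adjusted p = 6.24e-05, edgeR's quasi-likelihood test). Blvrb, which encodes biliverdin reductase B, was at 333, 337 and 334 CPM in Cre- and at 293, 267 and 277 CPM in Cre+. It fell by 16.6% (-0.26, SE 0.04, adjusted p = 0.00243, edgeR's quasi-likelihood test). Slc48a1, which brings haem from the phagolysosome to the cytosol, was at 304, 333 and 330 CPM and at 268, 264 and 265 CPM, and fell by 17.7% (-0.28, SE 0.05, adjusted p = 0.00165, edgeR's quasi-likelihood test). The Cre+ libraries of all 3 genes lay below every Cre- library, where the groups were apart in either direction for 24.0% of all genes tested. Hmox1 and Slc48a1 passed in 14 of 14 alternative settings and Blvrb in 13. Abcg2, a transporter that can carry haem and its precursors out of cells, is named after its values were seen, because it was called higher in 3 of 14 alternative settings (DESeq2, filterByExpr and no expression filter). It was at 28.5, 28.8 and 27.7 CPM in Cre- and at 33.2, 33.4 and 31.99 CPM in Cre+, a log2 fold change of 0.21 (SE 0.07, adjusted p = 0.0771, edgeR's quasi-likelihood test).

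None of the 7 tested genes of transferrin and other uptake passed the threshold in edgeR, 0 had an unadjusted p under 0.05, and DESeq2 and limma called 0. Their log2 fold changes ran from -0.50 to 0.21. Trf, encoding transferrin itself, was at 2999, 3010 and 2880 CPM in Cre- and at 2989, 2819 and 3113 CPM in Cre+ (log2 fold change 0.01, adjusted p = 0.970, edgeR's quasi-likelihood test), and Snx3, which recycles the transferrin receptor, was at -0.08 (adjusted p = 0.391, edgeR's quasi-likelihood test). Iron chaperones and ferritin turnover also held no call in edgeR among 7 tested genes, where 2 had an unadjusted p under 0.05, DESeq2 called 1 (Pcbp1) and limma 0. That list ran from -0.71 to 0.09 on the log2 scale. There the iron chaperone Pcbp1, which loads ferritin, was at -0.16 (SE 0.05, adjusted p = 0.105, edgeR's quasi-likelihood test), and the autophagy receptor Tax1bp1 was at 0.09 (adjusted p = 0.309, edgeR's quasi-likelihood test).

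Of 4 tested genes of ferroxidases and export, App fell, from 213, 227 and 224 CPM to 178, 164 and 165 CPM (-23.5%, log2 fold change -0.39, SE 0.05, adjusted p = 1.83e-04, edgeR's quasi-likelihood test). The list ran from -0.54 to 0.03 on the log2 scale, and its lowest gene did not pass the threshold. App encodes the amyloid precursor protein, listed here because it has been described to hold ferroportin at the cell surface, and its known functions reach well beyond iron. Mon1a, which acts in ferroportin trafficking, was at -0.25 (adjusted p = 0.232, edgeR's quasi-likelihood test).

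Of 4 tested genes of iron sensing, Epas1, encoding the hypoxia factor HIF-2α, rose from 93.3, 90.4 and 82.6 CPM to 141, 96.7 and 108 CPM. Cre+ replicate 1 was far above the other libraries. The log2 fold change of 0.38 (SE 0.10, adjusted p = 0.0409, edgeR's quasi-likelihood test) was 0.20 without it (adjusted p = 0.130, with 2.21e-08 to 0.197 over the 14 alternative settings), and the call held in 1 of 6 fits with a library left out, that without Cre+ replicate 2. Aco1, the other iron regulatory protein beside Ireb2, was at 69.6, 73.3 and 65.9 CPM in Cre- and at 78.0, 80.4 and 78.1 CPM in Cre+ without overlap, but missed the threshold (0.18, SE 0.05, adjusted p = 0.0761, edgeR's quasi-likelihood test). It passed by DESeq2 and with no expression filter.

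Mitochondrial iron and haem synthesis held 25 tested genes, of which 1 rose and 1 fell. Slc25a37 (mitoferrin), which imports iron into mitochondria, was at 14.7, 12.2 and 12.4 CPM in Cre- and at 9.30, 8.34 and 8.45 CPM in Cre+, and fell by 33.6% (log2 fold change -0.59, SE 0.11, adjusted p = 0.00523, edgeR's quasi-likelihood test). Alas1, the first enzyme of haem synthesis, was at 1538, 1675 and 1575 CPM in Cre- and at 1772, 1865 and 1907 CPM in Cre+. It rose by 15.8% (0.21, SE 0.04, adjusted p = 0.00830, edgeR's quasi-likelihood test). Both passed in 14 of 14 alternative settings. The mitochondrial iron-sulphur protein Cisd1 was at -0.07 (adjusted p = 0.536, edgeR's quasi-likelihood test).

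**Figure D4:**
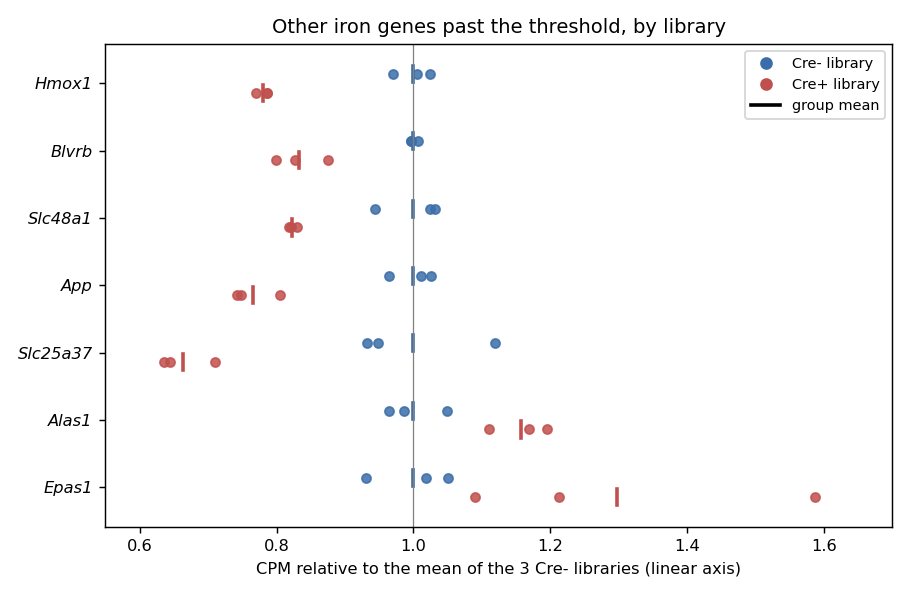
CPM of the 7 other iron genes past the threshold in each library, divided by the mean of the 3 Cre- libraries (linear axis), with points for libraries and short bars for group means. Cre+ points lie below all Cre- points for Hmox1, Blvrb, Slc48a1, App and Slc25a37 and above them for Alas1 and Epas1, where 1 Cre+ library at 141 CPM stands apart.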

How the data were processed

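Gene counts of 6 libraries (3 Cre-, 3 Cre+) were used as deposited. According to the submitters' processing notes, the authors aligned reads with STAR 2.7.9a and counted them per gene with featureCounts 2.0.3 on GRCm38. The study's methods name other versions of both tools, and the strand setting is not given in the sources used here. The study's general culture methods state 24 h of 4-OHT for cultured microglia. Its account of the cells used for this RNA-seq states 2 days, as the labels do. Gene symbols, biotypes and UTRs came from GENCODE M21. The deposited files also hold CPM and FPKM, which the authors scaled to the library total and, for FPKM, to the exon length of the gene. The CPM and FPKM given here were recomputed from the counts with TMM-scaled library sizes over the genes tested and the same lengths. After removal of 356 rRNA genes, a gene was tested where 4 or more libraries exceeded 1 CPM, which left 11429. Cre+ was compared with Cre- by edgeR's quasi-likelihood test (glmQLFit and glmQLFTest, version 4.0.16), with Benjamini-Hochberg adjustment over all genes tested and a threshold of 0.05, and the procedure was tested on simulated data. Fold changes are log2 of Cre+ over Cre-. The labels do not say whether replicates came from separate animals, so p-values measure the spread between these cultures.

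Named genes were the members, Nr1d1, every gene of 6 other iron lists past the threshold and the 2 of each list highest per length, near-identical sequences (at least 95% over 100 bases, blastn 2.17.0), and the 5 genes most like Steap3. The members and lists were chosen with earlier results of these data known. Alternatives were other scalings, filters and tests (DESeq2, limma), a replicate block and each library left out.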

Additional observations from a re-analysis of the deposited data

How the results depend on the processing

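Against 579 genes past the threshold, the DESeq2 Wald test called 886 and edgeR with no expression filter 1528. That last fit covered 43842 genes, with a median log2 fold change of -0.20. Steap3 (-1.06 against -1.14), Tfrc (0.31 against 0.23) and Fth1 (-0.05 against -0.13) lay higher in it than in the main fit. Values in that setting are therefore not centred as in the main fit, and the median of -0.20 does not measure this shift. Leaving out 1 library gave 317 to 448 genes. Of the members, 2 were called, and 1 (Steap3) with no expression filter, with filterByExpr and with the replicate block. Leaving out 1 library gave 1 to 3 members and 6 to 7 of the other iron genes. With the replicate block, 430 genes, 1 member and 7 other iron genes were called, and Fth1 had an adjusted p of 0.0570. Cre- and Cre+ libraries of the same replicate number showed no shared deviation over all genes tested (correlations of deviations 0.0144, -0.0205 and -0.0445). This cannot show whether the cultures were paired by litter or preparation. The direction turned for values close to 0: with 1 library left out, Ncoa4 ran from -0.0072 to 0.084, Ireb2 from -0.023 to 0.17, Trf from -0.029 to 0.042, Ftl2-ps from -0.24 to 0.0058 and Mir692-2, a miRNA that overlaps Ftl2-ps, from -0.12 to 0.25, and Cisd1 was 0.013 with no expression filter. Epas1 also missed the threshold by DESeq2 and limma voom, and Blvrb with no expression filter (-0.18). Calls gained among the other iron genes were Abcg2, Aco1 and Pcbp1 by DESeq2, Abcg2, Aco1 (0.26, adjusted p = 0.0171) and Uros with no expression filter, Abcg2 with filterByExpr, and Hp without Cre+ replicate 1 (Abcg2, Uros and Hp are named after their values were seen). The cause was not tested. Over 36 named genes, 473 alternative values kept direction and side of the threshold, 14 lost a call, 6 gained one and 11 turned direction. Depth limits Steap4, at 3 counts or fewer in every library.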
